A study of Mus musculus with 23 samples.

Results

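Cadherins and catenins form the adherens junction, the belt of adhesion that holds epithelial cells together. The 8 genes followed here were the classical cadherins Cdh1 (E-cadherin), Cdh2 (N-cadherin), Cdh3 (P-cadherin) and Cdh11 (OB-cadherin) and the catenins Ctnna1 (alpha-catenin), Ctnnb1 (beta-catenin), Ctnnd1 (p120-catenin) and Jup (plakoglobin). A probe set was used when its platform annotation named 1 of these symbols and no other, which gave 18 probe sets for 8 of the 18193 genes with such a probe set. Each gene is represented by its brightest probe set on average, and its others served as a check.

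The arrays measured mRNA of low-passage, untreated mouse pancreatic ductal adenocarcinoma (PDAC) lines, grown in 1 medium, with 1 array for each of 23 lines from 14 mice. The study used them to look for genes that go with the response to the PI3K/mTOR inhibitor Bez235. Of the lines, 12 carry the prefix PPT and were taken as primary tumour lines, and 11 carry another prefix (4 B, 2 ASC, 2 HEP, 2 PUL, 1 LN) and were taken as metastasis lines. The labels do not spell out the prefixes. The study's table of lines gives a genotype for 13 of the 23. All 13 carry a Cre recombinase, driven by Ptf1a in 10 lines and by Pdx1 in 3, both genes of the embryonic pancreas, so that recombination in every listed mouse began in that lineage. Trp53 R172H, a mutant allele of p53, is listed for 6 lines. Reporter alleles are listed too, LSL-R26 Tva-lacZ for PPT-3250, PPT-5671, PPT-16992, PPT-17728 and ASC-53909, and an LSL-PCNA firefly luciferase for PPT-3250, PPT-5320, PPT-5486 and PPT-5671. The other 10, which are HEP-5123, B-5123 and the lines of mice 15272 and 53631, are not in that table. A line is a cell culture without the stroma, vessels and leukocytes of a tumour, and lines of 1 mouse share its germline and may share a tumour. Because each line has 1 array, a single line's value carries no error of its own, and every error below is the spread between lines.

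Classical cadherins bind their own kind on the neighbouring cell through their extracellular repeats. Inside the cell, beta-catenin or plakoglobin binds the cadherin tail and alpha-catenin links it to actin, while p120-catenin holds the cadherin at the membrane. Beta-catenin is also the transcriptional arm of Wnt signalling. The loss of Cdh1 with a gain of Cdh2, called the cadherin switch, is a mark of epithelial-to-mesenchymal transition, and the repressors Snai1, Snai2, Zeb1 and Zeb2 bind E-boxes, short sites such as CAGGTG, in the promoters of epithelial genes.

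RefSeq promoter windows (250 bases before to 50 after the start, build GRCm38.p6) were at hand for 3 of the 8 genes, Ctnnb1, Ctnnd1 and Jup. None of their 5 windows held CAGGTG or its reverse complement CACCTG, which 20.2% of all 32851 windows held. Among 12 epithelial markers listed for comparison, 8 had windows and 9 of their 10 windows held the E-box. Of 24 windows of further catenins and junction partners, Nectin2 among them, 5 held it (20.8%). The stretches just before the start are shown for beta-catenin, which binds the cadherin tail, and for Nectin2, Krt7 and Epcam. These were mostly lower in the lines with little Cdh1, with overlap for Ctnnb1, Krt7 and Epcam and without it for Nectin2. Not all epithelial markers were: Krt8 and Krt18 were at least 12.02 in PPT-3250, PPT-16992 and PPT-5320. Nectin2 is a nectin of the adherens junction, Krt7 a keratin of duct epithelium and Epcam an epithelial adhesion molecule. Each is written 5′ to 3′ with the E-box in capitals. They lie at chr9:120933280-120933399 (plus strand, Ctnnb1, the first of its windows), chr7:19749574-19749693 (minus strand, Nectin2), chr15:101412283-101412402 (plus strand, Krt7) and chr17:87635779-87635978 (plus strand, Epcam).
Ctnnb1: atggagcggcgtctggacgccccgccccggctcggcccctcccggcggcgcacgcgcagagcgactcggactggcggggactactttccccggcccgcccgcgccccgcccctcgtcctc
Nectin2: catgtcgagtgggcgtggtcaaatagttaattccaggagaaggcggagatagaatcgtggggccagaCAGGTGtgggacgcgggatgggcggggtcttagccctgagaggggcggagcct
Krt7: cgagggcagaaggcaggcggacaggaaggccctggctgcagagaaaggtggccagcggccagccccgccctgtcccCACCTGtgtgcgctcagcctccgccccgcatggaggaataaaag
Epcam: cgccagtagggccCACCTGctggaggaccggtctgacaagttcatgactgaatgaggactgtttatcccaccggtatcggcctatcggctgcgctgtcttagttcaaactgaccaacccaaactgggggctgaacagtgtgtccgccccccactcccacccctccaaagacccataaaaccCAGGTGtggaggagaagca
Counted from the start, the first base of the E-box was at -53 in Nectin2 and at -44 in Krt7, and Epcam held one at -187 and one at -19. These matches describe the sequence and say nothing about binding in these lines.

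Cdh1 split the lines into those that kept it and those with much less of it. Its log2 signal was 2.22 in PPT-3250, 2.75 in ASC-5193, 3.59 in PPT-16992, 4.81 in PPT-17728, 5.87 in PPT-5320 and 6.48 in ASC-53909. No line lay between 6.48 and 10.23, a gap of 39.1% of the whole range, and the other 17 lines ran from 10.23 in HEP-5123 to 11.81 in PPT-3107 with a median of 11.12. In PPT-3250 and ASC-5193 the signal was below the median of all probe sets on the same array, which lay between 3.58 and 3.89 over the 23 arrays. In the other lines under the gap it was above that median, by 0.01 in PPT-16992 to 2.81 in ASC-53909. The 6 lines under the gap came from 6 mice. They were 4 of the 12 primary and 2 of the 11 metastasis lines, and both metastasis lines had the prefix ASC. All 6 are in the study's table, 5 with Ptf1a-Cre and 1 with Pdx1-Cre, and 1 of them with Trp53 R172H. Across all 45037 probe sets Cdh1 had the 47th largest SD (3.20 on the log2 scale). It had no second probe set to check against. In a culture, fewer cells that hold a transcript and less of it in each cell cannot be told apart.

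Cdh2 was high on both sides of that gap, and its 4 highest values were in lines with little Cdh1. In the 6 lines under the gap its log2 signal was 9.72 in PPT-3250, 11.13 in ASC-5193, 10.08 in PPT-16992, 9.09 in PPT-17728, 10.09 in PPT-5320 and 10.78 in ASC-53909. In the 17 lines above the gap the lowest value was 6.68 in LN1-15272, the median 8.88 and the highest 9.74 in PPT-5486. The ranges overlapped: 4 lines with little Cdh1 lay above every line that kept it, while PPT-3250 and PPT-17728 did not. PPT-6051, PPT-5748, PPT-5193 and PPT-5486 kept Cdh1 and had Cdh2 at 9.18 to 9.74, above the 9.09 of PPT-17728. No line was low in both. The lines with the least Cdh2 were LN1-15272 (6.68), HEP2-53631 (7.19), PPT-15272 (7.30), PUL-15272 (7.67), B-152727 (7.87) and PPT-53631 (7.99), all of mice 15272 and 53631. The second Cdh2 probe set followed the first with a Pearson r of 0.97 over 23 lines.

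**Figure D1:**
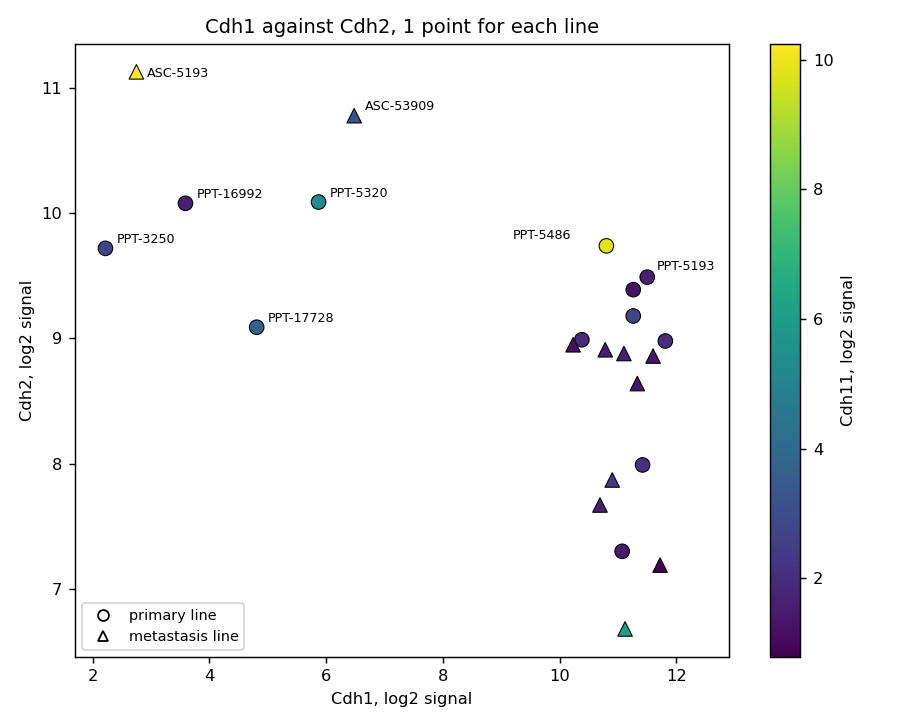
Each point is 1 line, with the log2 signal of Cdh1 on the horizontal and of Cdh2 on the vertical axis, circles for primary and triangles for metastasis lines, and colour for the log2 signal of Cdh11. The 6 lines at the left have Cdh2 between 9.09 and 11.13, and the 17 at the right spread from 6.68 to 9.74. The 2 yellow points, ASC-5193 at the left and PPT-5486 at the right, have Cdh11 near 10.

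The relation between the cadherins was tested as a slope, the change in log2 signal for each log2 unit of Cdh2, with limma and the mouse as a random block. Over 23 lines, 4.30% of the 45035 probe sets tested passed an adjusted p of 0.05 (1938), 917 of them (2.04%) with a negative and 1021 (2.27%) with a positive slope. Of the 7 genes other than Cdh2, Cdh1 passed, with a slope of -1.95 (SE 0.50, n = 23 lines, adjusted p = 0.0315). The call was not seen within the lines above the gap. Among the 17 lines that kept Cdh1 the slope was -0.08 (adjusted p = 0.936), and Pearson's r between the cadherins there was -0.09 (Spearman's rho -0.06). These lines were chosen on Cdh1 and vary little in it (SD 0.45 against 3.20 over all lines), which by itself flattens this slope. The slope was -2.21 within the primary lines (adjusted p = 0.565) and -1.67 within the metastasis lines (adjusted p = 0.0636). The call was also lost without ASC-5193 (slope -1.60, adjusted p = 0.145), with the second Cdh2 probe set as the measure (-1.87, adjusted p = 0.0768), and without the lines of 5 of the 14 mice, those of PPT-5193 and ASC-5193 (-1.68), PPT-16992 (-1.78), PPT-5320 (-1.89), ASC-53909 (-2.01) and the lines of 53631 (-2.11), with adjusted p from 0.0541 to 0.125. With the mouse as a fixed effect, which compares lines of 1 mouse only, the slope was -2.04 (adjusted p = 0.580).

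The other 6 genes had slopes on Cdh2 that did not pass. Cdh11 had the steepest, 0.97 (SE 0.50, adjusted p = 0.278), Cdh3 -0.17 (SE 0.08) and Jup -0.16 (SE 0.12). For the other catenins the 95% intervals were -0.07 to 0.09 for Ctnna1, -0.21 to 0.04 for Ctnnb1 and -0.26 to 0.10 for Ctnnd1. The dimmer Ctnnb1 probe sets had steeper slopes, -0.19 (SE 0.10, adjusted p = 0.275) and -0.32 (SE 0.12, 95% interval -0.56 to -0.08, adjusted p = 0.115), which did not pass either.

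Cdh11, a cadherin of osteoblasts and fibroblasts, was near the floor of the arrays in most lines and high in 2. Its log2 signal was 10.24 in ASC-5193 and 9.78 in PPT-5486, then 6.10 in LN1-15272, 5.26 in PPT-5320 and 3.74 in PPT-17728. In 19 of the 23 lines it was below the array's median, down to 0.79 in HEP2-53631. The high lines lay on opposite sides of the gap in Cdh1: ASC-5193 had Cdh1 at 2.75 and PPT-5486 at 10.80, so that PPT-5486 carried Cdh1, Cdh2 and Cdh11 together. The second Cdh11 probe set was also highest in these lines (6.36 and 5.65, Pearson r with the first 0.92, Spearman's rho 0.50). Several genes of the mesenchymal list stood high with it in PPT-5486. Fap, a protease of activated fibroblasts, was 8.10 there and at most 3.29 elsewhere, Col3a1 was 13.01, Col1a2 13.15 and Pdgfrb 10.59, the highest of all lines for Fap, Col3a1 and Pdgfrb. Fn1 (12.48) was also the highest of all lines. Sparc (12.23), Tagln (10.62), Acta2 (12.57), Col1a1 (10.73), Pdgfra (7.46) and Dcn (7.16) were the highest among the lines that kept Cdh1. Dcn reached 11.53 in ASC-5193. Lum, a fibroblast proteoglycan, did not stand high: it was 2.51, within the 1.97 to 3.01 of the lines that kept Cdh1. Vim (13.22) and S100a4 (12.12) also lay within the range of those lines. The keratins of PPT-5486, Krt8 (13.29) and Krt18 (13.22), were within the range of the other lines that kept Cdh1. Whether a minority of other cells in that culture accounts for its Cdh11 was not tested.

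Cdh3 was dim throughout. Its signal ran from 4.56 in PPT-5748 to 6.18 in PPT-15272, always above the array's median. The 6 lines with little Cdh1 had 4.70 to 5.02, inside the range of the others, and 13 of the 17 lines that kept Cdh1 lay above 5.02. The 4 highest lines were PPT-15272 (6.18), PPT-3107 (5.96), PPT-6051 (5.86) and PPT-5193 (5.78), all primary. Its dimmer probe set followed with a Pearson r of 0.49.

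Of the 8 genes, Cdh1 alone had ranges that did not overlap at the gap. Over all probe sets, 0.697% lay lower in every one of the 6 lines than in any of the 17, and 0.451% lay higher. Because the gap was found in the Cdh1 values themselves, no test was made between the sides.

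Alpha-catenin hardly varied. Ctnna1 ran from 11.78 in B-152727 to 12.43 in PPT-16992 and PPT-3107, a range of 0.65 log2 units, and its SD of 0.17 lay under the median SD of all probe sets, 0.28. Its range in the lines with little Cdh1, 11.82 to 12.43, lay within that of the others, 11.78 to 12.43. Its second bright probe set gave the same order of lines nearly throughout (Spearman's rho 0.98), while its 2 dim probe sets did not follow (rho -0.17 and 0.19). The chosen probe set has the suffix _x_at, which marks probes that may match other transcripts, and the second bright one has none.

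Beta-catenin was bright in every line and lower where Cdh1 was low, with a slight overlap. Ctnnb1 was 11.64 in PPT-17728, 11.75 in ASC-5193, 11.98 in PPT-3250, 12.06 in ASC-53909, 12.14 in PPT-5320 and 12.23 in PPT-16992. The 17 lines that kept Cdh1 had a lowest value of 12.17, a median of 12.43 and a highest of 12.77. The lowest 5 of the 6 lines lay under all 17, and 3 of the 17 lay within the range of the 6. Its 2 other probe sets showed the same order of the sides, at 8.46 to 9.45 against 9.31 to 10.56 and at 4.46 to 5.87 against 5.63 to 6.73.

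p120-catenin showed a similar order. Ctnnd1 was 7.57 in PPT-3250, 7.88 in PPT-16992, 8.03 in ASC-5193, 8.15 in PPT-5320, 8.18 in ASC-53909 and 8.27 in PPT-17728. The 17 other lines ran from 7.97 in HEP2-53631 to 9.10 in PPT-5193 with a median of 8.57, and 12 of them lay above all 6. Its second bright probe set gave 6.60 to 7.53 against 6.90 to 8.23. Ctnnb1 and Ctnnd1 went together over the 23 lines with a Pearson r of 0.67 and a Spearman's rho of 0.71. The r was 0.62 within the 17 lines that kept Cdh1, 0.69 over the 14 mouse means and 0.75 without the 2 lines farthest from the Ctnnb1 median. Within the 6 lines with little Cdh1 the sign was opposite, with an r of -0.30 and a rho of -0.37. The points share a normalization and, in part, a mouse, so these correlations are descriptions.

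Plakoglobin, which can take the place of beta-catenin on the cadherin tail and also serves desmosomes, was lowest in ASC-5193. Jup was 4.83 in ASC-5193, still above that array's median of 3.61, and 6.04 to 7.50 in the other 22. The highest value, 7.50, was that of ASC-53909, a line with little Cdh1. Jup had no second probe set to check against. ASC-5193 was also the line without simple keratins: Krt8 was 3.44 and Krt18 2.46 there, against at least 7.53 and 6.01 elsewhere.

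Within the 17 lines that kept Cdh1, the slope of every probe set on Cdh1 was fitted. None of 45036 passed (0%), with 3109 at an unadjusted p under 0.05, and none passed within the 6 lines under the gap (0%), with 2718. Ctnna1 had the smallest p of the 7 genes in the 17 lines, with a slope of 0.25 for each log2 unit of Cdh1 (SE 0.08, 95% interval 0.07 to 0.42, limma p = 0.00961, adjusted p = 0.547), a Pearson r of 0.71 and a Spearman's rho of 0.79. Its second bright probe set had a slope of 0.22 (SE 0.09). Cdh3 followed with 0.42 (SE 0.23), Ctnnd1 with 0.17 (SE 0.20), Jup with 0.13 (SE 0.21) and Ctnnb1 with 0.10 (SE 0.12). The slopes of Cdh2 (-0.30, SE 0.45) and Cdh11 (-0.75, SE 1.24) had the widest errors.

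Metastasis and primary lines did not differ detectably in any of the 8 genes. In the limma fit with the mouse as a random block, 0 of 45037 probe sets passed an adjusted p of 0.05 (0%), and 1649 had an unadjusted p under 0.05. None of the 8 genes was among those 1649. The metastasis minus primary difference of Cdh1 was 0.38 (SE 1.24, 95% interval -2.18 to 2.93, n = 11 and 12 lines), with both groups holding lines on either side of the gap: the primary lines ran from 2.22 over a median of 10.94 to 11.81 and the metastasis lines from 2.75 over 10.90 to 11.72. Cdh2 differed by -0.20 (SE 0.39) and Cdh11 by 0.26 (SE 1.04). The interval of Cdh1 is wide, so a sizeable difference in either direction was not detectable with these lines.

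For the catenins the intervals were narrower. The difference was -0.08 (SE 0.07, 95% interval -0.23 to 0.07) for Ctnna1, 0.00 (SE 0.12, interval -0.25 to 0.26) for Ctnnb1 and -0.06 (SE 0.17, interval -0.41 to 0.29) for Ctnnd1. Jup had the difference with the largest size among the catenins, -0.40 (SE 0.23, p = 0.0983), and without ASC-5193 it was -0.15. Cdh3 was -0.29 (SE 0.16, p = 0.0909), with 6.18 as the highest primary and 5.32 as the highest metastasis value, and medians of 5.10 and 5.11. The signs of Cdh1, Cdh2, Cdh11, Ctnnb1 and Ctnnd1 turned under some other settings, and no setting brought a call.

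**Figure D2:**
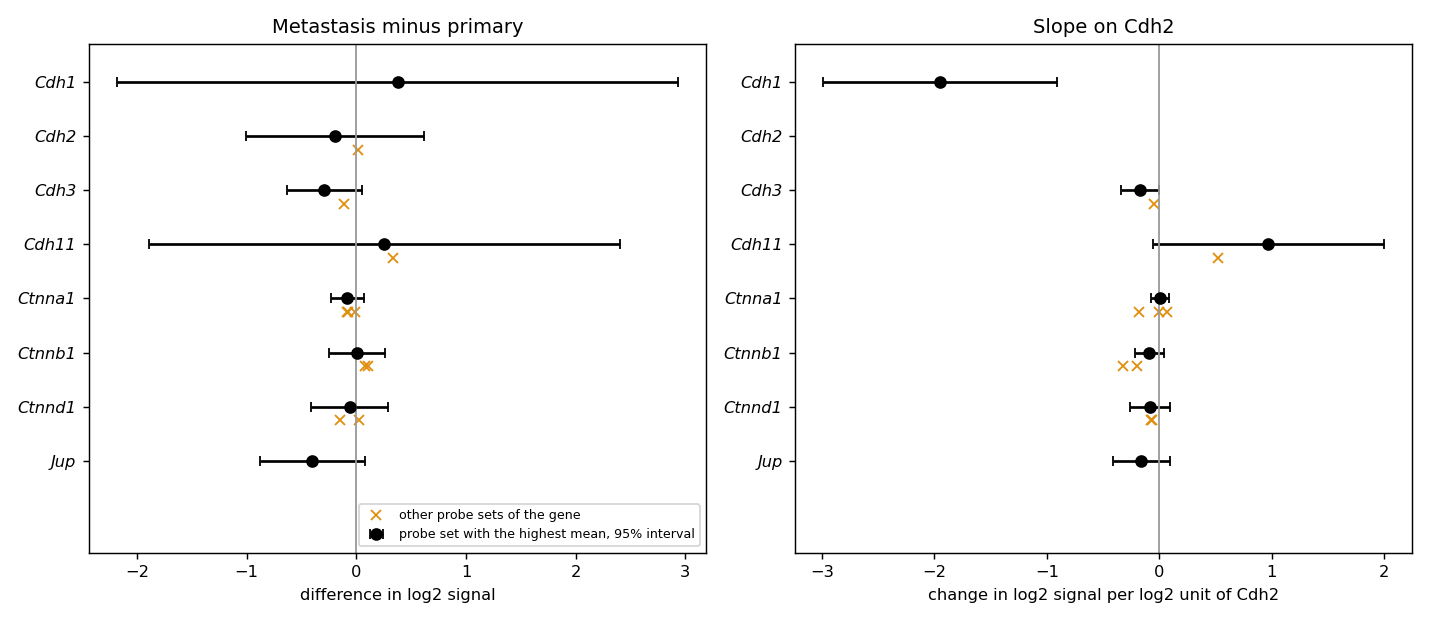
Left, the metastasis minus primary difference in log2 signal for each gene. Right, the change in log2 signal for each log2 unit of Cdh2. Points are limma estimates for the chosen probe set, bars 95% intervals, and crosses the estimates of the other probe sets. Cdh2 has no slope on itself. At the left every interval holds 0, and at the right the interval of Cdh1 (-2.99 to -0.91) is the one that does not.

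Lines of both sites were at hand for 4 mice, each with 1 primary line and 8 metastasis lines in all. In the mouse of PPT-5193 and ASC-5193 all 4 cadherins differed widely between the sites. Cdh1 was 11.50 in PPT-5193 and 2.75 in ASC-5193, Cdh2 9.49 and 11.13, Cdh11 1.66 and 10.24, and Cdh3 5.78 and 4.79. The catenins of ASC-5193 were lower than those of PPT-5193 as well, by 2.40 log2 units for Jup, 1.07 for Ctnnd1, 0.86 for Ctnnb1 and 0.38 for Ctnna1. This is 1 pair of lines with 1 array each, and it has no replicate.

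In the other 3 mice Cdh1 differed little between the sites. B-6051 and the 6 metastasis lines of mice 15272 and 53631 differed from their primary line by -0.38 to 0.34 log2 units in Cdh1 and by -0.80 to 0.89 in Cdh2. Cdh3 was lower than in the primary line in 7 of the 8 metastasis lines, from -1.29 in B-152727 to -0.09 in B-53631, and 0.07 higher in HEP2-53631. LN1-15272 had 4.66 log2 units more Cdh11 than PPT-15272, with Cdh1 at 11.12 and 11.07. The second Cdh11 probe set was 2.60 and 1.58 in these lines, both below the array's median (3.75 and 3.76). Col1a2 (8.98 and 4.15), Col3a1 (7.72 and 2.83) and Pdgfrb (6.46 and 2.12) were also higher in LN1-15272. Of the mesenchymal list, Fn1 alone was lower there (10.04 and 11.63). Ctnna1 moved by -0.12 to 0.14 in these 7 lines and Ctnnb1 by -0.10 to 0.56. Ctnnd1 was lower by 0.57 to 0.67 in the 3 metastasis lines of mouse 15272 and higher by 0.73 in B-6051. Jup was lower in 6 of the 8 lines. The lines of mice 15272 and 53631 share their primary line, so their differences are not independent.

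Other cadherins were mostly dim, and Cdh17 went with Cdh1. Of 13 further cadherins, 11 were measured and 3 of them, Cdh5, Cdh8 and Cdh22, were below the array's median in all lines. Cdh17, the liver-intestine cadherin, was 1.31 to 3.28 in the 6 lines with little Cdh1 and 4.78 to 10.13 in the others, and it was the only one of the 11 to pass in the slope on Cdh2, falling by 1.91 for each log2 unit (SE 0.45, adjusted p = 0.0204). Over all probe sets, 4.30% passed this slope. Cdh17, and the genes of the lists below that passed this slope or did not overlap, were named after their values were seen. With the mouse as a fixed effect, and within the 17 lines that kept Cdh1, no gene of any list passed. The call of Cdh17 was also lost within the primary lines, with the second Cdh2 probe set, without ASC-5193 and without the lines of its mouse, of mouse 53631 or ASC-53909. Cdh6 (2.51 to 8.88), Cdh10 (1.95 to 8.64) and Cdh16 (2.85 to 7.98) varied widely from line to line with overlap between the sides. Cdh26 was 7.69 in ASC-5193 and at most 3.95 elsewhere. Cdh13, a cadherin held by a lipid anchor, had the smallest p of them in the site comparison, 0.56 higher in metastasis lines (SE 0.25, limma p = 0.0355, adjusted p = 0.9999).

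Of 19 further catenins and partners, 3 passed in the slope on Cdh2, where 4.30% of all probe sets passed. Nectin3 rose by 1.06 for each log2 unit (SE 0.28, adjusted p = 0.0346) and vinculin, Vcl, which ties alpha-catenin to actin, by 0.27 (SE 0.08, adjusted p = 0.0471), and Plekha7, which binds p120-catenin, fell by 0.93 (SE 0.18, adjusted p = 0.00779). All 3 calls were lost without ASC-5193. None of the 3 passed within the metastasis lines alone, and only Nectin3 passed within the primary lines alone. Vcl was also lost with the second Cdh2 probe set, with site as a covariate and without PPT-5486. Over the 14 mice left out in turn, Vcl was lost in 11, all but PPT-17728, PPT-5671 and PPT-5748, and Nectin3 in 4, which were PPT-16992, PPT-5320, the mouse of ASC-5193 and mouse 53631, while Plekha7 was lost in none. Plekha7 was 2.96 to 5.16 in the 6 lines and 5.59 to 8.05 in the 17, and Nectin2 5.22 to 6.60 and 6.80 to 8.59. Both lay lower in the 6 lines without overlap, as did 0.697% of all probe sets. The actin-binding Lima1 was 0.83 higher in metastasis lines (SE 0.36, limma p = 0.0282, adjusted p = 0.9999), and Ctnna2, which was below the array's median in all lines, differed by -0.17 (limma p = 0.0161, adjusted p = 0.9999). Within the 17 lines Pkp4 had the smallest p on Cdh1 (slope 0.64, SE 0.17, adjusted p = 0.431), before Ajuba (-0.50, SE 0.20), Lima1 (1.05, SE 0.47) and the sheddase Adam10 (0.27, SE 0.15). The median slope on Cdh2 was -0.03 over the 19 genes and 0.00 over all probe sets.

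Desmosomes are spot junctions that anchor keratins and hold Jup as a component. Of their genes, 3 (Dsp, Dsg2 and Evpl) lay lower in every line with little Cdh1 than in any other, as did 0.697% of all probe sets. Of 10 desmosome genes measured, 5 fell with Cdh2 and none rose, where 2.04% of all probe sets fell and 2.27% rose. The median slope of the 10 was -0.53. Desmoplakin, Dsp, the link to keratin, was 1.59 to 3.24 in the 6 lines and 8.24 to 10.54 in the 17, a wider gap than that of Cdh1. The desmosomal cadherin Dsg2 was 2.09 to 3.51 and 4.18 to 9.81, and envoplakin, Evpl, 4.45 to 4.73 and 4.92 to 6.73. Perp (1.86 to 9.01 against 7.87 to 11.32) and Pkp3 overlapped. The slopes on Cdh2 were -1.98 for Dsp (SE 0.53, adjusted p = 0.0358), -1.76 for Perp (SE 0.39), -1.62 for Dsg2 (SE 0.42), -0.60 for Pkp3 (SE 0.13) and -0.47 for Evpl (SE 0.08, adjusted p = 0.00284). Pkp2, another armadillo protein, was kept at 6.77 to 9.89, and Ppl and Pkp1 overlapped too. Without ASC-5193, Pkp3 and Evpl passed and the other 3 did not. Dsp and Dsg2 were also lost with the second Cdh2 probe set and without PPT-16992, PPT-5320, ASC-53909 or the lines of mouse 53631. Dsp was also lost without HEP-5123 and B-5123, and Pkp3 without the lines of mouse 15272. None of the 5 passed within the primary or the metastasis lines alone.

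Zeb1, alone among the 6 repressors of Cdh1, passed in the slope on Cdh2, as did 4.30% of all probe sets. It rose by 0.48 for each log2 unit (SE 0.10, adjusted p = 0.0120), and it passed without ASC-5193 and without each mouse in turn, but not with the mouse as a fixed effect, within the 17 lines, or within the primary or the metastasis lines alone. Its signal was 8.80 to 9.52 in the 6 lines and 6.0 to 8.92 in the 17, with PPT-5486 (8.92) and PPT-5748 (8.90) the highest of the 17, and PPT-15272 the lowest. Snai2 was highest in ASC-5193 (10.76), PPT-5748 (10.36) and PPT-5486 (9.83), the last 2 of which kept Cdh1 at 11.26 and 10.80. Snai1 was dim, at 3.63 to 4.73 in the 6 lines and 2.44 to 3.37 in 16 of the 17, with PPT-5486 (4.81) above them all, and its slope on Cdh2 of 0.32 did not pass (SE 0.12, adjusted p = 0.130). Zeb2 (4.10 to 8.61), Twist1 (2.37 to 8.48) and Twist2 (3.09 to 10.42) overlapped between the sides. In the site comparison Snai1 (-0.45, SE 0.24) and Twist2 (-1.18, SE 0.72) had the smallest p and did not pass.

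**Figure D3:**
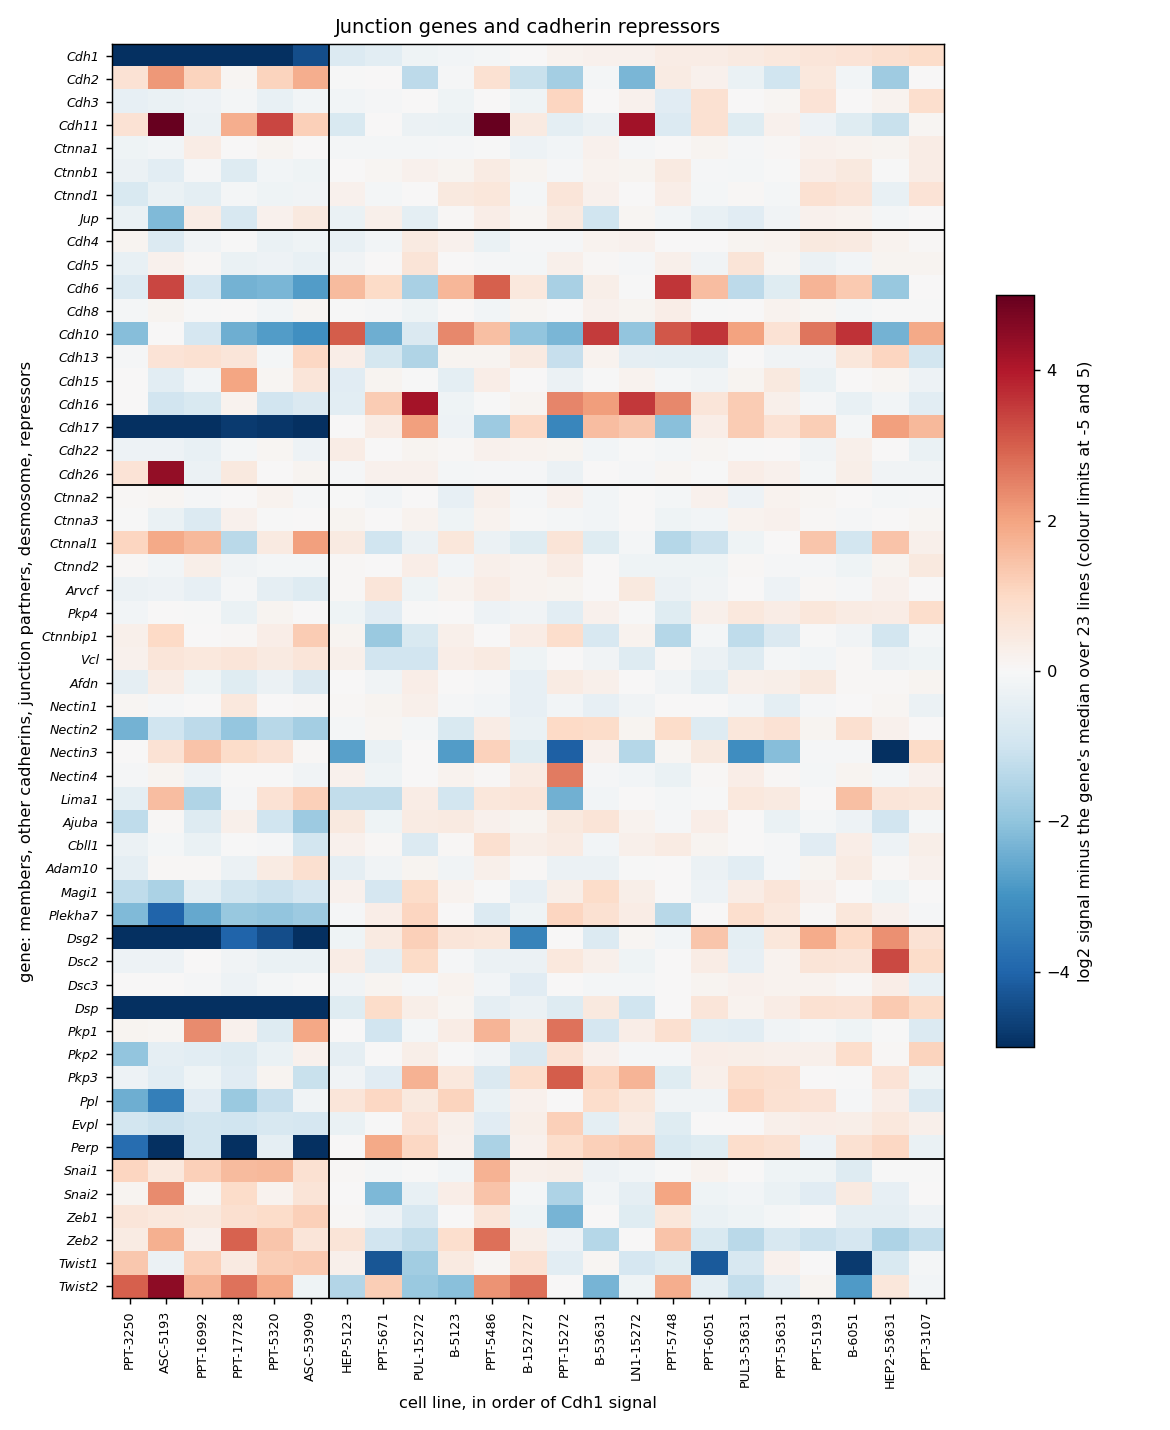
Rows are the 8 genes and the lists of further cadherins, junction partners, desmosome genes and repressors, divided by horizontal lines. Columns are the 23 lines in the order of Cdh1, with the vertical line at its gap. Colour is the log2 signal minus the gene's own median over the lines. The blue blocks at the left, the low values, include Cdh1, Cdh17, Plekha7, Dsg2 and Dsp.

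Among beta-catenin's signalling partners and targets, 1 gene of each list passed in the slope on Cdh2, where 4.30% of all probe sets passed. With lists of 11 and 12 genes, 1 call does not set either apart from that share. Of 11 genes of the destruction complex and the transcription complex, Pygo2, a co-activator, passed with a rise of 0.17 for each log2 unit of Cdh2 (SE 0.04, adjusted p = 0.0153), and of 12 targets Rnf43, which removes Wnt receptors, passed with a fall of 0.84 (SE 0.22, adjusted p = 0.0371). Rnf43 was 2.15 to 2.95 in the 6 lines and 2.90 to 6.37 in the 17, and PPT-15272 (2.90) alone of the 17 lay within the range of the 6. Its call was lost without ASC-5193, PPT-16992, PPT-5320, ASC-53909 or the lines of mouse 53631, and with the second Cdh2 probe set. That of Pygo2 was lost without PPT-5193 and ASC-5193 together or the lines of mouse 53631. Neither gene passed within the primary or the metastasis lines alone. Axin2, the most direct target, was 3.95 to 4.98 in the 6 lines and 4.11 to 6.38 in the 17. Lgr5, Ascl2, Sp5 and Dkk1 were below the array's median in 18 to 23 of the 23 lines. Myc (8.05 to 9.82) and Ccnd1 (11.13 to 12.62) were bright in all lines, and Ccnd1 had the smallest p of the targets by site (0.24 higher in metastasis lines, SE 0.14, adjusted p = 0.9999). None of the 23 genes had ranges without overlap at the gap. Over all probe sets, 0.697% lay lower and 0.451% higher in the 6 lines without overlap.

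The labelled cell type was checked on marker lists. Over 14 mesenchymal genes the mean log2 signal of a line was 8.23 to 10.42 in the 6 lines with little Cdh1 and 4.62 to 10.42 in the 17, the upper end being PPT-5486. Of the 14, 2 (Dcn and Pdgfra) rose with Cdh2, as did 2.27% of all probe sets. Neither passed without ASC-5193, with the second Cdh2 probe set, or within the primary or the metastasis lines alone. The median slope of the 14 was 0.84. S100a4 alone did not overlap, at 13.01 to 13.62 in the 6 lines and 7.97 to 12.94 in the 17. Over all probe sets, 0.451% lay higher in the 6 lines without overlap. Over 12 epithelial genes the mean was 2.97 to 5.49 and 6.0 to 9.86. Of the 12, 6 (Epcam, Krt7, Krt19, Cldn3, Cldn7 and Ocln) fell with Cdh2, as did 2.04% of all probe sets. Epcam, Cldn3 and Cldn7 also passed without ASC-5193. Krt7, Krt19 and Ocln did not, and were also lost with the second Cdh2 probe set. None of the 6 passed within the primary lines alone, and only Epcam passed within the metastasis lines alone. Over 9 leukocyte and endothelial genes the mean was 3.51 to 4.02 and 2.83 to 3.44, and 5 of the 9, Ptprc, Itgam, Adgre1, Pecam1 and Tek, were below the array's median in every line. Of the others, Cd68 was 3.92 to 7.37, Kdr 3.65 to 4.78 and Cd3e 3.56 to 4.39, and Cd34 was 8.71 to 12.26 in the 6 lines and 2.14 to 7.82 in the 17. Over 7 acinar and islet genes the mean was 3.42 to 3.94 and 3.23 to 4.12. The part of other cells in the cadherin values was not tested.

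Genes whose order over the 23 lines was most like that of Cdh1, among 11650 genes with a mean above the median of all means, were Golm1 (Spearman's rho 0.94), Tmem51 (0.90), Depdc7, Cmbl and Parm1 (0.88 each), and Mgat3, Gfpt1 and Bcl3 (0.87 each). Within the 17 lines that kept Cdh1 their rho was 0.70 to 0.86. Golm1 was 7.79 to 9.73 in the 6 lines and 10.10 to 11.99 in the 17, without overlap. The most opposed were A830082K12Rik (-0.86), Ifi204, Nr2f1 and Mast4 (-0.84 each), Ak1 and Meis1 (-0.82 each), and S1pr2 and Sertad4 (-0.81 each). Part of each rho over 23 lines is the gap itself.

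For Cdh2 the genes most alike were Stxbp4 (rho 0.91), Pde3b (0.90), Rcbtb2 (0.89), Ifit2 (0.88) and Fkbp7 (0.87), and the most opposed were Eya2, Upk3bl and Smim22 (-0.92 each), Dennd2d (-0.91) and the zinc transporter Slc39a4 (-0.90). Slc39a4 was 2.52 to 3.48 in the 6 lines with little Cdh1 and 8.22 to 10.20 in the others. Within the 17 lines that kept Cdh1, where Cdh2 and Cdh1 were unrelated in order, Upk3bl followed Cdh2 with a rho of -0.96 and Pde3b with 0.85. These genes were picked for their likeness to Cdh2, so a test of their slope on Cdh2 would repeat that choice and is not given.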

How the data were processed

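RNA of 23 cell lines was measured on Affymetrix GeneChip mouse genome arrays. The deposited values are log2 signals that the authors background-corrected, normalized and summarised for each probe set, with variance stabilisation (VSN) according to the supplementary methods. The submitters' processing notes name RMA instead, and which was used is not settled here. No further normalization was made. The 64 control probe sets of 45101 were left out. Of the other 45037, 34945 have 1 gene symbol in the platform annotation, 932 several and 9160 none.

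Sites were read from the prefix of the line name, mice from its number (B-152727 was taken as mouse 15272), and genotypes from the study's table, of which 1 allele is not reported here. Every probe set was fitted with limma 3.58.1 in R 4.3.3, with the mouse as a random block (within-mouse correlation 0.24 for site, 0.21 for both slopes) and Benjamini-Hochberg adjustment over all probe sets, called at 0.05. A slope on a gene with a gap of at least 25% of its range and 4 or more lines on each side was fitted within each side of at least 6 lines. The code was tested on simulated data. Tables and plots were made with Python 3.11.15, NumPy 2.4.6, pandas 2.3.3, SciPy 1.17.1 and matplotlib 3.10.9. The number of arrays limits the precision.

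Lines of 1 mouse come from the same animal, which pairs them: over 15 such pairs, deviations from the site means correlated with a median r of 0.42 (range -0.15 to 0.65), against -0.09 over 238 pairs from different mice. From each further list, the genes with the smallest p in the site difference (2) and in the slope on Cdh1 (4) were set to be named, but not all of them are given above. Other list genes were named after their values were seen. For likeness the 8 genes at each end for Cdh1 and 5 for Cdh2 were named. The genes, lists and tests were chosen with earlier results of these data known. Alternatives included other scalings, filters, blocks and probe sets, and leaving out each mouse in turn, with the block correlation then estimated on 1 probe set in 20.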

Additional observations from a re-analysis of the deposited data

How the results depend on the processing

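The site comparison called 0 probe sets under all 25 alternatives, and of 209 values for the 8 genes none was called (lowest adjusted p 0.694) and 29 turned in sign. Turned site differences were, for Cdh1, -1.74 with the mouse as a fixed replicate block and -0.35 without the lines of prefix B. For Cdh2 they were 0.37 with that block, 0.054 on 1 mean for each mouse and site, and 0.017 for the other probe set. For Cdh11 they were -0.17 with no replicate block, -0.86 without the lines of prefix ASC and -0.72 without ASC-5193. For Ctnnb1 they were -0.028 after quantile normalization, -0.0039 without B-152727, -0.032 on 1 mean for each mouse and site and -0.12 without prefix B, and for Ctnnd1 0.042 without prefix ASC, 0.0065 without ASC-5193 and 0.020 for its dim probe set. Leaving out each mouse gave -0.11 to 1.49 for Cdh1, -0.43 to 0.090 for Cdh2, -0.81 to 0.83 for Cdh11, -0.069 to 0.11 for Ctnnb1 and -0.16 to 0.055 for Ctnnd1.

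The count for the slope on Cdh1 within the 17 lines was 0 to 2 over the mice left out (2 without PPT-5486), and 0 otherwise. Turned slopes were 0.71 for Cdh11 with the fixed replicate block, -0.30 for Jup in primary lines, -0.11 for Ctnnd1 in metastasis lines, -0.39 and -0.022 for the dim probe sets of Ctnna1 and -0.39 for the dim one of Ctnnd1. Leaving out each mouse gave -0.48 to 0.078 for Cdh2 and -1.76 to 0.065 for Cdh11.

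The count for the slope on Cdh2, 1938, was 3708 with no replicate block, 0 with the mouse as a fixed replicate block (3632 at an unadjusted p under 0.05), and 478 to 2668 over the mice left out, the lower counts being 478 without PPT-5193 and ASC-5193, 666 without the lines of mouse 53631, 965 without ASC-53909, 1140 without PPT-5320 and 1233 without PPT-16992. It was 459 without ASC-5193, 719 with the other Cdh2 probe set, 7 within the 17 lines, 20 in primary and 123 in metastasis lines. Turned slopes were -0.11 and -0.011 for Ctnna1 (fixed replicate block, metastasis lines), 0.10 and 0.028 for Ctnnb1 (the 17 lines, primary lines), 0.19 for Ctnnd1 (the 17 lines) and 0.044 for Jup (without ASC-5193). Leaving out each mouse gave -0.042 to 0.032 for Ctnna1 and -0.24 to 0.037 for Jup. The cause of these changes was not tested. The alternatives within a site, without ASC-5193 or PPT-5486, within the 17 lines and with the other Cdh2 probe set were chosen after seeing the data. No second probe set of Cdh1 could be tried.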

Other observations

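Among the marker lists, the pancreatic elastase Cela1 had the smallest p in the site comparison, 1.57 log2 units higher in metastasis than in primary lines (SE 0.42, limma p = 0.00097, adjusted p = 0.9999), and it did not pass the adjustment over all probe sets.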
